A study of Mus musculus with 24 samples.

Results

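Interferon-stimulated genes are the genes that cells transcribe in answer to interferons, the cytokines of antiviral defence. A set of 50 such genes was taken by symbol from the 23420 gene symbols counted in each library, and all 50 were found. They were chosen by name, with earlier results of these data known. By role they comprised 6 sensors of RNA and other nucleic acids, 10 antiviral effectors, 5 OAS family genes and 3 of ISG15 conjugation. There were 9 interferon-inducible GTPases, 3 PYHIN genes, 4 PARP and ubiquitin ligase genes, 2 genes of double-stranded RNA sensing and editing, and 8 others. The effectors are called IFIT, MX and viperin effectors below, but they also include Bst2, Cmpk2, Isg20 and Samhd1. The sensors include Trim25, which encodes a ubiquitin ligase. The genes were described in macrophages and Th2 cells that lacked TET or TDG proteins and in their wild-type (WT) controls.

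In the textbook pathway a type I interferon such as IFN-β binds the receptor IFNAR, the kinases JAK1 and TYK2 phosphorylate STAT proteins, and a STAT complex with IRF9 enters the nucleus. That complex binds the interferon-stimulated response element, a motif built of GAAA repeats, in the promoters of its target genes. In macrophages, Toll-like receptor 4 starts the same chain: signalling through the adaptor TRIF activates IRF3, IRF3 induces Ifnb1, and secreted IFN-β then acts on the macrophages themselves. Macrophages also keep these genes at a resting level, through continuous low-grade interferon signalling. TET1, TET2 and TET3 oxidise 5-methylcytosine in DNA, and TDG excises the more oxidised forms.

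RNA-seq libraries were available for 10 groups. Bone marrow-derived macrophages (BMDMs) were grown in medium conditioned by L929 cells with M-CSF, and were left unstimulated (0 h) or were given Kdo2-lipid A (KLA), a purified agonist of Toll-like receptor 4, for 6 h. A Tet cohort held WT and TET iTKO BMDMs, and a Tdg cohort held WT and TDG iKO BMDMs, with 2 libraries per genotype and time. TET iTKO mice carried floxed Tet1, Tet2 and Tet3 alleles and a Rosa26 YFP reporter, and TDG iKO mice carried floxed Tdg and a Rosa26 H2B-EGFP and mCherry reporter. Deletion was driven by tamoxifen-activated CreERT2 inserted at the Ndor1 locus, in C57BL/6 mice aged 8 to 16 weeks, and the control mice were also given tamoxifen. Whether the controls carried floxed alleles was not stated in the sources used here. Th2 cells were grown from naive CD4+ T cells sorted from spleen and lymph nodes. These were stimulated by plate-bound antibodies to CD3 and CD28 with IL-4 and antibody to IFN-γ, and were then expanded in IL-2. Th2 cells were sequenced from WT and TDG iKO mice as 4 libraries each, without a TET iTKO group.

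Assigned read counts ranged from 4982950 to 21503302 in the BMDM libraries and from 7641848 to 26657729 in the Th2 libraries. Values below are normalised counts, which are read counts divided by the DESeq2 size factor of the library. Macrophage markers were high in all BMDM libraries, where the T cell gene Cd3e did not exceed 3.07, and Csf1r was at 0 in all Th2 libraries. The whole-gene count did not show the deletions: Tet2 lay at 702 to 737 in TET iTKO and 506 to 603 in WT BMDMs at 0 h, and Tdg did not exceed 9.22 in any library. Ndor1, at the site of the Cre insertion, was lower in TET iTKO than in WT BMDMs, at 230 to 249 against 366 to 420 at 0 h. Th2 replicates 3 and 4 of each genotype differed by little more than counting noise and were counted as 1 sample, which left 3 samples per genotype. In the Tdg cohort, replicate 2 of unstimulated WT BMDMs had the lowest depth and stood apart, and results that rest on it are given without it as well.

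Promoters bear on these genes because the response element is read there. RefSeq promoter sequences of build GRCm38.p6 were matched by symbol for 36 of the 50 genes. The core of the response element, taken as 2 GAAA repeats with any 2 bases between them and searched on both strands from 250 bases before to 50 bases after the start, was found in 19 of the 36 promoters (52.8%), against 3.99% of 27025 promoters of all genes. The STAT-type pattern TTCNNNGAA was present in 11 of the 36 (30.6%), against 9.55% of all promoters. Of the 25 genes with a promoter that rose with KLA in WT BMDMs of the Tet cohort, 14 (56.0%) held the core, as did 5 of the other 11 (45.5%). A match is a description of the letters and not of binding. The 250 bases before the start are shown for 6 genes that span the responses described below, with matches to that core in capitals, which read as TTTC repeats where the match is on the other strand.
Ifi205: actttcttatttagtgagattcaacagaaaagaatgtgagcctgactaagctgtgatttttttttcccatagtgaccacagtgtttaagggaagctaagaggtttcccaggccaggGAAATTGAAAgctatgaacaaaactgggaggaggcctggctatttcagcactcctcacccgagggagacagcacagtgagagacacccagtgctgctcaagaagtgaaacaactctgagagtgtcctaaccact
Gbp5: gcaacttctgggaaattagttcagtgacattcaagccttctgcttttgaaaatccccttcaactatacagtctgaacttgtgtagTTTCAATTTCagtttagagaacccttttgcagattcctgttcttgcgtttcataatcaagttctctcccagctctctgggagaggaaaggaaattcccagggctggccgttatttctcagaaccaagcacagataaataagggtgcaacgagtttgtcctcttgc
Isg15: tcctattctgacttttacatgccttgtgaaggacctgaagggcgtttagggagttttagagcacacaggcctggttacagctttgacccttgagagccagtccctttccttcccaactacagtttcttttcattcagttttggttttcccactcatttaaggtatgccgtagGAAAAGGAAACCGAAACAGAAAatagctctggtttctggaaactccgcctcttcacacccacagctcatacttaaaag
Rsad2: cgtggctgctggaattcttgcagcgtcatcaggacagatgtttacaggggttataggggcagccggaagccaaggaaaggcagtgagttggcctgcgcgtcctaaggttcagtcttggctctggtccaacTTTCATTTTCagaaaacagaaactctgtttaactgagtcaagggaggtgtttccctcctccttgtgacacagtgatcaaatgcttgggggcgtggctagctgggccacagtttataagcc
Ifit1: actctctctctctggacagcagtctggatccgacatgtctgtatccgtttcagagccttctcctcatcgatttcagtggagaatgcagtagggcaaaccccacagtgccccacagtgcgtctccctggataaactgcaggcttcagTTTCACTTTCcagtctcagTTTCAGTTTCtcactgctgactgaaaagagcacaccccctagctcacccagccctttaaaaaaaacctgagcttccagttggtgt
Lgals3bp: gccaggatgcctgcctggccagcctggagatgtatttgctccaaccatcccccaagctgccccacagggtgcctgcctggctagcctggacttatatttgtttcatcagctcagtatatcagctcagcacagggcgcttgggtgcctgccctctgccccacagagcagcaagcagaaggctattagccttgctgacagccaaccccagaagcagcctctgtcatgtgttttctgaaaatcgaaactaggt
The Ifi205 window (chr1:174031756-174032005, minus strand) held the core 134 bases before the start, counted to the first letter of the match, and the Gbp5 window (chr3:142496684-142496933, plus strand) held it 165 bases before. In Isg15 (chr4:156200819-156201068, minus strand) 3 overlapping matches began 78, 72 and 66 bases before the start. Rsad2 (chr12:26456453-26456702, minus strand) held 1 match at 120 bases, and Ifit1 (chr19:34640639-34640888, plus strand) held 2, at 104 and 85 bases. The window of Lgals3bp (chr11:118401960-118402209, minus strand), a gene that did not pass the KLA test in any group, held no match to these letters.

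The 50 genes took 1.39% to 3.91% of the assigned counts in BMDMs and 0.179% to 0.463% in Th2 cells. Compared per kilobase of exon, the highest levels in unstimulated WT BMDMs were those of Ifi27l2a (28800 normalised counts per kb), Bst2 (25400), which encodes the virus-tethering protein tetherin, Lgals3bp (8800), which encodes a secreted glycoprotein, and Isg15 (7500), which encodes a ubiquitin-like modifier. The lowest were those of Gbp6 (106) and Gbp5 (64.0), which encode guanylate-binding proteins, and of the GTPase gene Ifi47 (1.2). These levels are means that include the low-depth library, in which Ifi27l2a, Bst2 and Isg15 were well above replicate 1 of its group. The order of the highest levels is therefore uncertain. The annotation of mm9 has 46.4% of the exon bases of Ifi27l2a overlap its neighbour Ifi27l2b on the same strand, so its level is uncertain. The IFIT, OAS, PYHIN and GBP genes lie in clusters of similar copies, and read pairs that align to several of them are lost from such counts. Ifi47 did not exceed 17.5 in any BMDM library. In mm9, 4.79% of its exon bases overlap Olfr56 on the same strand. The annotation used for the counts was not given, so the low level of Ifi47 is uncertain too.

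**Figure D1:**
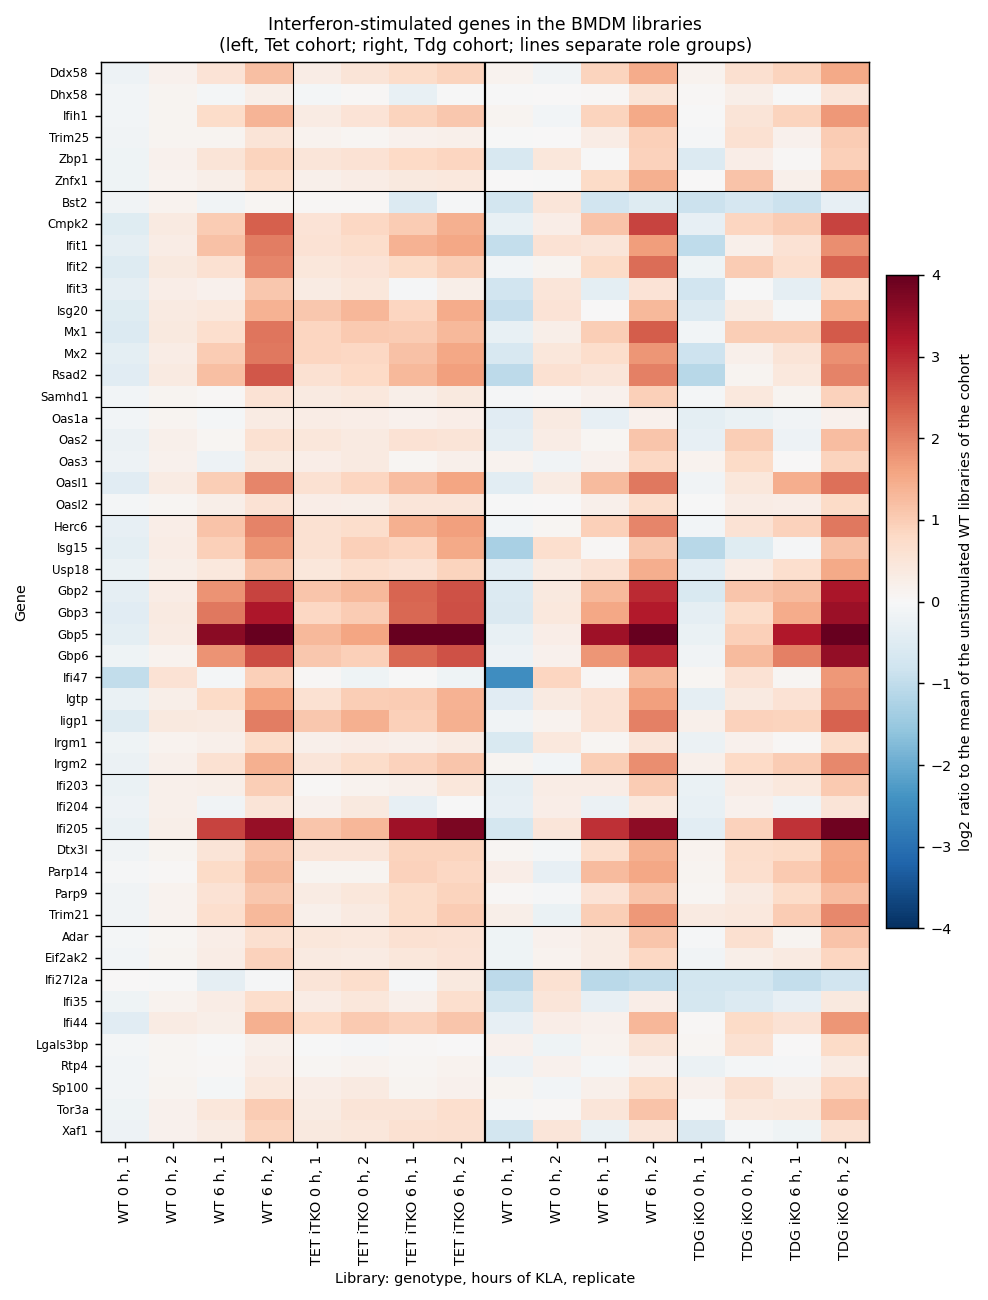
Heat map of the 50 genes (rows, grouped by role) in the 16 BMDM libraries (columns); the colour is the log2 ratio of the normalised count plus 1 to the mean of the unstimulated WT libraries of the same cohort, with the scale ending at 4 in either direction. The guanylate-binding protein genes and Ifi205 show the strongest rise at 6 h in every genotype, and replicate 2 is redder than replicate 1 in most groups.

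KLA raised most of these genes in WT BMDMs. In the Tet cohort 32 of the 49 genes tested rose and none fell (DESeq2, Benjamini-Hochberg adjusted p under 0.05), where 13.1% of all genes tested were called higher, and the median log2 change of the 49 genes was 0.87. In bulk RNA, a change in the number of cells that respond and a change in RNA per cell cannot be told apart. The largest increases were those of Gbp5, Ifi205 and Gbp3. The genes that rose included 7 of the 8 GTPase genes tested, all 4 PARP and ubiquitin ligase genes, 5 of 6 sensors and 6 of 10 IFIT, MX and viperin effectors, against 2 of 5 OAS genes and 1 of 3 PYHIN genes. Without replicate 1 of the 0 h WT group 16 genes rose, and without replicate 2 of the 6 h WT group 19 did. With the replicate number as a block within genotype, 40 of the 49 rose (14.2% of all genes), among them 9 of 10 effectors, 3 of 5 OAS genes and all 3 ISG15 conjugation genes.

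Gbp5 (mm9, chr3:142159864-142185308), whose product promotes inflammasome assembly and restricts intracellular pathogens, stood at 173 and 285 normalised counts in the 0 h WT libraries and at 2778 and 7130 in the 6 h WT libraries of the Tet cohort. The times did not overlap, and the log2 change was 4.44 ± 0.55 (SE, n = 2 per group, DESeq2 adjusted p = 1.39e-14). Ifi205 (mm9, chr1:175942129-175961886), a PYHIN gene of the family that holds the DNA sensor AIM2, stood at 663 and 945 at 0 h and at 5297 and 8980 at 6 h, a log2 change of 3.16 ± 0.35. Gbp3 stood at 452 and 789 against 2657 and 5796, a log2 change of 2.78 ± 0.48. These 3 genes were also the ones with the largest increase in each of the other genotypes. In all of them the 2 libraries of the 6 h WT group lay further apart than those of the 0 h group.

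Among the antiviral effectors, Rsad2, which encodes viperin, an enzyme that makes a chain-terminating nucleotide, rose from 4958 and 8611 to 15552 and 37924 in WT BMDMs of the Tet cohort (log2 change 1.99 ± 0.53, DESeq2 adjusted p = 0.00108). Ifit2, whose product binds viral RNA and blocks its translation, rose from 7449 and 13768 to 16179 and 41236 (1.45 ± 0.55, DESeq2 adjusted p = 0.0354). Isg15 rose from 2299 and 3750 to 5867 and 10263 (1.42 ± 0.44), whereas its deconjugating protease gene Usp18 went from 2859 and 4086 to 4661 and 7762 without passing the test (DESeq2 adjusted p = 0.0525), but passed with the block (0.83 ± 0.09, DESeq2 adjusted p = 5.93e-20). Of the genes with high resting levels, neither Lgals3bp nor Bst2 passed the test. Lgals3bp went from 25454 and 28619 to 26630 and 31055 (0.10 ± 0.11), and Bst2 from 13766 and 16683 to 13792 and 16096.

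The sensors and RNA enzymes named here rose by at most 1.04 on the log2 scale, with standard errors of 0.13 to 0.16. Parp14, which encodes an ADP-ribosyltransferase, went from 11943 and 12920 to 21329 and 29610 (1.04 ± 0.13), and Dtx3l, which encodes a ubiquitin ligase partner of PARP9, from 3147 and 3770 to 4894 and 7694 (0.87 ± 0.16). Dtx3l and Parp9 overlap on opposite strands by 8.0% of the exon bases of Dtx3l, and the strand setting of the counting was not given in the sources used here. Eif2ak2, which encodes the double-stranded RNA kinase PKR, went from 2519 and 2915 to 3371 and 5183 (0.66 ± 0.16), and the RNA editor gene Adar from 2762 and 3120 to 3518 and 4592 (0.47 ± 0.13). Znfx1, which encodes a helicase that senses viral RNA, went from 8233 and 10290 to 10998 and 15071 (0.50 ± 0.14), and the ubiquitin ligase gene Trim25 from 5709 and 6785 to 6788 and 8973 (0.34 ± 0.13). Among the OAS genes, the family of enzymes that make the 2-5A messenger of RNase L, Oasl2 rose by 0.41 ± 0.12 on the log2 scale and Oas3 did not pass the test (0.13 ± 0.16).

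In the Tdg cohort fewer genes passed the test, with a similar median change. In WT BMDMs 14 of 50 rose (5.29% of all genes were called higher) with a median log2 change of 0.87, and in TDG iKO BMDMs 5 of 50 rose (4.27% of all genes) with a median of 0.82. Gbp5 went from 231 and 341 to 2985 and 9655 in WT and from 239 and 551 to 2663 and 11783 in TDG iKO BMDMs. The spread between replicates was wide: every one of the 50 genes was higher in replicate 2 than in replicate 1 in 3 of the 4 groups of this cohort, and 39 were in the 0 h WT group, where 47.3% to 49.1% of all genes were higher in replicate 2. The number called in WT was 9 without replicate 2 of 0 h and 2 without replicate 2 of 6 h. Without replicate 1 of 0 h, 9 rose and 2 fell in WT. In TDG iKO it was 2 without replicate 1 of 0 h, 10 without replicate 2 of 0 h, 16 without replicate 1 of 6 h and 2 without replicate 2 of 6 h. With the replicate number as a block within genotype, 30 of 49 genes were called in WT (16.5% of all genes) and 28 of 50 in TDG iKO BMDMs (11.3% of all genes).

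**Figure D2:**
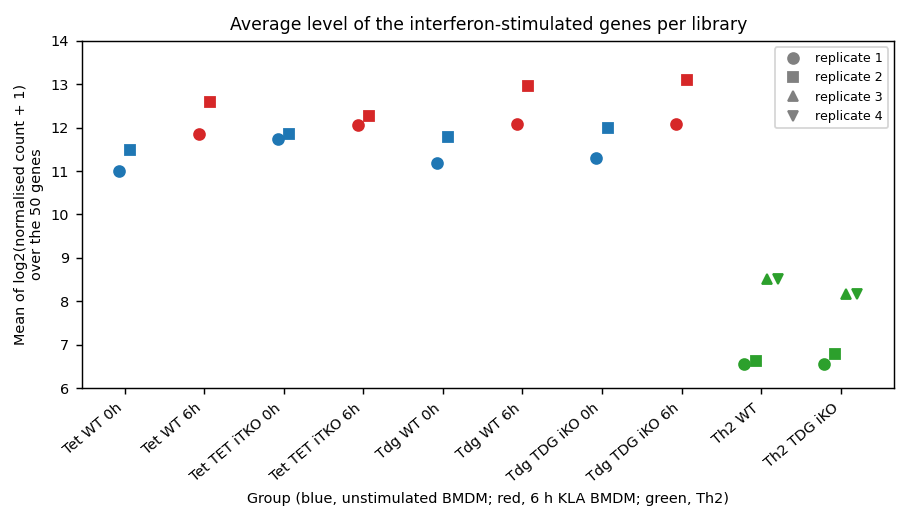
Mean over the 50 genes of log2(normalised count plus 1), 1 point per library, for the 10 groups. The Th2 libraries lie between 6.553 and 8.512 and the BMDM libraries between 11.01 and 13.09, and among BMDMs the 6 h groups lie above the 0 h groups of the same replicate number.

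The difference between replicates ran the same way in every BMDM group. Replicate 2 was higher than replicate 1 for 49 and 50 of the 50 genes in the WT groups of the Tet cohort at 0 h and 6 h, and for 39 and 44 genes in the TET iTKO groups. The median log2 ratio of replicate 2 to replicate 1 was 0.369 and 0.65 in those WT groups against 0.109 and 0.201 in TET iTKO, and 0.559 to 0.88 over the 4 groups of the Tdg cohort. Markers of granulocytes and their progenitors did not run the same way in both cohorts. In the Tdg cohort their summed normalised count was higher in replicate 1 (2094 to 6178) than in replicate 2 (383 to 563). In the Tet cohort it was lower in replicate 1 (389 to 998) than in replicate 2 of the same group (559 to 1798). The part of these cells in the result was not tested.

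Before stimulation, some of these genes were higher in TET iTKO than in WT BMDMs. Of 49 genes tested, 7 were higher and none lower (4.38% of all genes were called higher), with a median log2 difference of 0.44, and 47 of the 49 differences were above 0 against 51.6% of all genes. The 2 TET iTKO libraries lay above both WT libraries for 42 of the 49 genes, where 27.1% of all genes did so. The genes called were Ifi205, Gbp2, Gbp6, Ifi27l2a, Zbp1, Dtx3l and Adar. Without replicate 2 of the 0 h TET iTKO group none of these genes was called, without replicate 1 of it 2 were, and without replicate 1 of the 0 h WT group 2 were.

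Ifi205 stood at 1722 and 2033 in unstimulated TET iTKO BMDMs against 663 and 945 in WT, a log2 difference of 1.22 ± 0.35 (DESeq2 adjusted p = 0.0112). Gbp2, a guanylate-binding protein gene on chromosome 3 (mm9, chr3:142283566-142300972), stood at 3270 and 3734 against 1169 and 1863 (1.21 ± 0.40, DESeq2 adjusted p = 0.0386), and Gbp6 (mm9, chr5:105699723-105722718) at 1087 and 1006 against 464 and 573 (1.01 ± 0.20, DESeq2 adjusted p = 2.42e-05). In each of the 3 genes both TET iTKO libraries were above both WT libraries. Ifi27l2a differed by 0.62 ± 0.14 and Zbp1, which encodes a sensor of Z-form nucleic acids, by 0.54 ± 0.14. Gbp5, at 567 and 692 against 173 and 285, had a larger difference with a wider error (1.46 ± 0.55, DESeq2 adjusted p = 0.088). The IFIT, MX and viperin effectors had a median difference of 0.67 and none passed, with Rsad2 at 10415 and 11729 against 4958 and 8611.

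After 6 h of KLA no difference between TET iTKO and WT BMDMs passed the test. None of the 49 genes was called by DESeq2 or by edgeR with its filter on low counts, and 6.58% of all genes were called by DESeq2. The unadjusted p was under 0.05 for 1 gene with DESeq2 and for 2 with edgeR, and edgeR without the filter called 10. The median log2 difference was -0.10 and ranged over the genes from -0.64 to 0.45. The groups overlapped for all of the 49 genes but Ifi27l2a, which was higher in both TET iTKO libraries (25.1% of all genes). None was lower in both (22.4% of all genes). In the 6 h WT group replicate 2 was above replicate 1 for all 50 genes, by a median log2 ratio of 0.65. Groups so wide overlap readily, and nothing is concluded from the overlap. Gbp5 stood at 3976 and 5639 against 2778 and 7130, Rsad2 at 16549 and 21146 against 15552 and 37924, and Isg15 at 5545 and 8618 against 5867 and 10263. The direction depended on the WT library kept: without replicate 1 of WT 5 genes were called, all lower in TET iTKO, and without replicate 2 of WT 3 were called, all higher. Without replicate 1 of TET iTKO 1 gene was called higher, and without replicate 2 of it 1 was called lower. Replicate 2 of the WT group was the highest of the 4 libraries in all 3 of these genes.

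**Figure D3:**
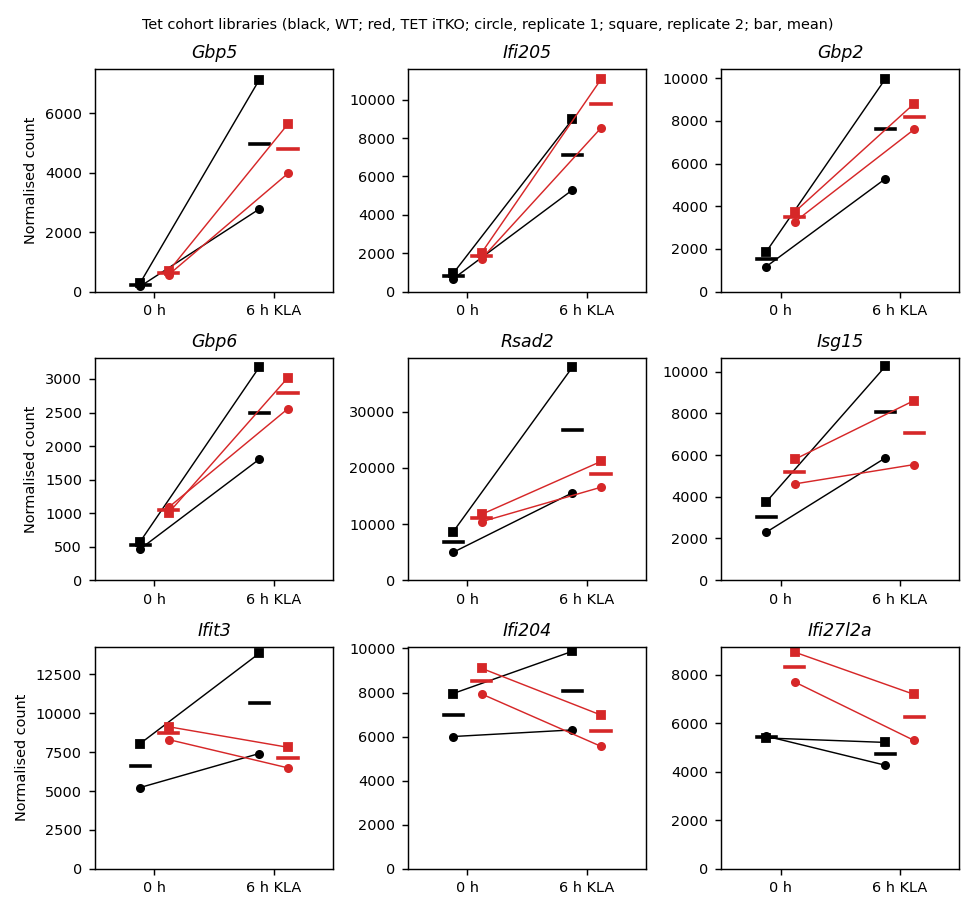
Normalised counts on a linear scale of 9 genes in the 8 BMDM libraries of the Tet cohort, by genotype and time. WT is black and TET iTKO red, circles are replicate 1, squares replicate 2 and bars the mean. At 0 h the red points of Gbp5, Ifi205 and Gbp2 lie above the black ones, and at 6 h the black points of Gbp5 (2778 and 7130) enclose the red ones (3976 and 5639).

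Markers of other cell types also moved with the TET genotype. The summed normalised count of 7 macrophage markers was 292892 to 294181 in TET iTKO against 351835 to 362367 in WT BMDMs at 0 h, and most of it was Lyz2, at 191301 to 196605 against 251180 to 263529. Cd68 and Mertk were also lower without overlap at 0 h, Csf1r, Emr1 and Cd14 were higher without overlap, and Fcgr1 overlapped. That of 4 granulocyte and progenitor markers was 881 to 1798 against 389 to 726 at 0 h and 998 to 1523 against 510 to 559 at 6 h. That of 3 B cell markers was 45.1 to 220 against 18.2 to 21.6 at 0 h, and 44.2 to 219 against 18.4 to 25.1 at 6 h. Markers of plasmacytoid dendritic cells, which secrete much type I interferon, summed to 2.05 to 8.45 against 1.3 to 8.08 at 0 h and to 37.2 to 67.7 against 17.5 to 30.7 at 6 h. Nearly all of the 6 h sum was Ccr9, while the defining genes Siglech and Klk1 did not exceed 0.743 in the Tet cohort. Markers of conventional dendritic cells summed to 15.4 in both TET iTKO libraries against 2.6 to 2.69 in WT at 0 h, and to 6.69 to 10.3 against 3.5 to 4.65 at 6 h. The part of these cells in the result was not tested.

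After KLA, the median change of these genes in TET iTKO BMDMs was 0.22 on the log2 scale. Of 49 genes tested, 10 rose (12.8% of all genes were called higher) and 1 fell (11.6%), and all 10 had also risen in WT BMDMs of the same cohort. They were Gbp5, Ifi205, Gbp3, Gbp6, Gbp2, Parp14, Trim21, Ifih1, Parp9 and Dtx3l, and the one that fell was Ifi27l2a (log2 change -0.41 ± 0.14, DESeq2 adjusted p = 0.0187). None of the IFIT, MX and viperin effectors, the OAS genes or the ISG15 conjugation genes passed in that fit. In fits of only the 2 groups compared, 25 genes were called in WT BMDMs, all higher (11.9% of all genes). In TET iTKO BMDMs 23 were called, of which 21 rose and 2 fell (11.4% and 9.2% of all genes). Without any 1 of the 4 libraries 5 or 6 genes were called, and with the replicate number as a block within genotype, 22 rose (13.9% of all genes) and 3 fell (12%), and those called included 5 of 10 effectors (4 rose and 1 fell), 2 of 5 OAS genes and 2 of 3 ISG15 conjugation genes.

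Gbp5 rose from 567 and 692 to 3976 and 5639 in TET iTKO BMDMs (log2 change 2.93 ± 0.55) and Ifi205 from 1722 and 2033 to 8529 and 11065 (2.38 ± 0.35). Rsad2 went from 10415 and 11729 to 16549 and 21146 without passing the test (0.77 ± 0.53). Ifit3, an IFIT gene with a close copy beside it (mm9, chr19:34658021-34663221), stood at 8309 and 9135 at 0 h and at 6490 and 7813 at 6 h in TET iTKO BMDMs, but at 5225 and 8050 and then 7414 and 13864 in WT BMDMs. Ifi204, a PYHIN gene for a sensor of DNA (mm9, chr1:175677424-175697050), stood at 7930 and 9095 and then 5555 and 6976 in TET iTKO, and at 6002 and 7954 and then 6302 and 9871 in WT BMDMs. In both of these genes the 2 times did not overlap in TET iTKO BMDMs. With the block, Ifit3 and Ifi204 were called lower at 6 h in TET iTKO BMDMs (log2 changes -0.29 ± 0.09 and -0.45 ± 0.09).

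**Figure D4:**
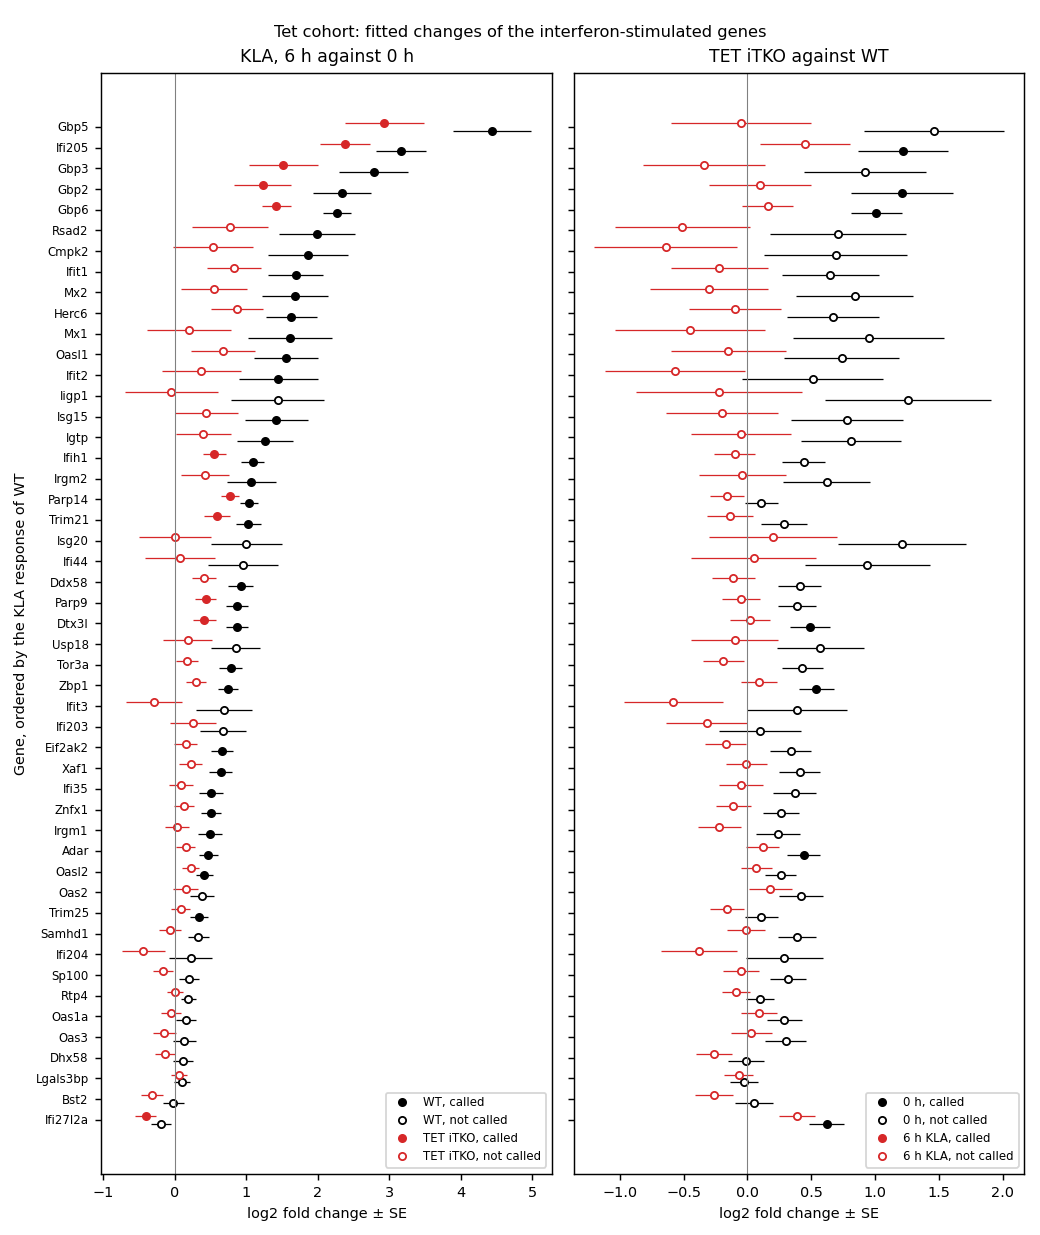
Log2 differences with standard errors for the 49 genes tested in the Tet cohort: the KLA response of WT and of TET iTKO BMDMs on the left, and TET iTKO minus WT at 0 h and at 6 h on the right; filled symbols passed the DESeq2 test. The response of Gbp5 was 4.44 in WT and 2.93 in TET iTKO BMDMs, and most differences at 0 h lie above 0 while those at 6 h lie on either side of it.

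The difference between the responses was tested as an interaction. All 49 interaction terms were below 0, with a median of -0.52, against 51.7% of the terms of all genes, and none of the 49 passed the DESeq2 test. An unadjusted p under 0.05 was found for 8 of them with DESeq2 (544 of all genes) and for 17 with edgeR (721 of all genes). By edgeR none of them was called with its filter on low counts and 24 without it (1.8% of all genes). Only 52 of all genes passed by DESeq2, which was 0.426%. The KLA response of WT, that of TET iTKO, the 0 h difference and this term share their libraries, so they are different readings of the same values. Taken by replicate number, the KLA change was smaller in both TET iTKO pairs than in both WT pairs for 48 of the 49 genes with a mean of at least 10 normalised counts, where 21.6% of all genes had this order, and the exception was Ifi27l2a. In 5 of these 49 genes (2.75% of all genes), namely Ifit3, Ifi204, Dhx58, Samhd1 and Sp100, the value went up in both WT pairs and down in both TET iTKO pairs.

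A block of the replicate number within genotype treats same-numbered 0 h and 6 h libraries as pairs, which the labels do not state. It also leaves little from which to estimate the error. With this block, 28 of the 49 genes were called with a smaller response in TET iTKO BMDMs and none with a larger one, where 2.18% of all genes were called lower. These 28 included 8 of 10 IFIT, MX and viperin effectors, 6 of 8 GTPases, all 3 ISG15 conjugation genes, 4 of 6 sensors and 1 of 5 OAS genes. The terms were -1.42 ± 0.34 for Gbp5, -1.08 ± 0.12 for Gbp2, -0.99 ± 0.13 for Isg15, -0.94 ± 0.12 for Ifit3, -0.76 ± 0.13 for Ifi205 and -0.65 ± 0.12 for Ifi204. Gbp6 (-0.81 ± 0.31, DESeq2 adjusted p = 0.206) and Parp14 (-0.26 ± 0.12, DESeq2 adjusted p = 0.543) did not pass. Without the block, the median term was -0.815 without replicate 1 of the 6 h WT group and -0.182 without replicate 2 of it, against -0.52 with all libraries.

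TDG iKO BMDMs did not differ detectably from their WT controls in these genes. At 0 h, at 6 h and in the change of the KLA response, none of the 50 genes and none of all genes (0.0%) passed by DESeq2. None of these genes was called by edgeR or had an unadjusted p under 0.05 with either tool. With the replicate number as a block across the genotypes none of the 50 was called either, and 4 of all genes were at 0 h and 0 at 6 h. Gbp5 differed by 0.46 ± 0.70 at 0 h and by 0.19 ± 0.69 at 6 h, errors larger than the 0.55 of the Tet cohort. At 0 h both TDG iKO libraries lay above both WT libraries for 9 of the 50 genes (10.7% of all genes) and below for none (9.87%). With all libraries the median log2 difference of these genes was 0.24 at 0 h and -0.14 in the change of the response. These medians were 0.1 and 0.00351 without replicate 1 of the 0 h WT group, and 0.446 and -0.359 without replicate 2. Leaving out replicate 1 keeps the low-depth library as the only 0 h WT sample. There Isg15 stood at 13236 against 3417 in replicate 1, Ifi27l2a at 32185 against 10326 and Bst2 at 33068 against 14014, while Parp14 stood at 6764 against 10181. The ratio of this library to replicate 1 fell with exon length, with a Spearman correlation of -0.603 over the 50 genes and -0.328 over all genes. The part of exon length in these values was not tested.

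The WT responses of the Tet and Tdg cohorts were compared directly as well. None of the 50 genes passed by DESeq2 or edgeR or had an unadjusted p under 0.05, where 2 of all genes (0.0127%) were called, and the median log2 difference was -0.05. With the low-depth library as the only 0 h WT sample of the Tdg cohort that median was 0.157, and without the low-depth library it was -0.317. None of the 50 genes was called in more than 1 comparison between genotypes.

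In Th2 cells 37 of the 44 genes tested were lower than in unstimulated WT BMDMs and 1, Igtp, was higher, with a median log2 difference of -2.77. Of all genes 25.9% were called lower and 30.0% higher. The cell types were cultured and prepared apart, so cell type and preparation cannot be told apart here. All 6 sensors, all 3 ISG15 conjugation genes, all 4 OAS genes tested and 7 of 9 IFIT, MX and viperin effectors were lower, whereas 4 of the 9 GTPase genes were lower and 1 was higher. Leaving out any 1 library gave 40 to 46 calls.

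**Figure D5:**
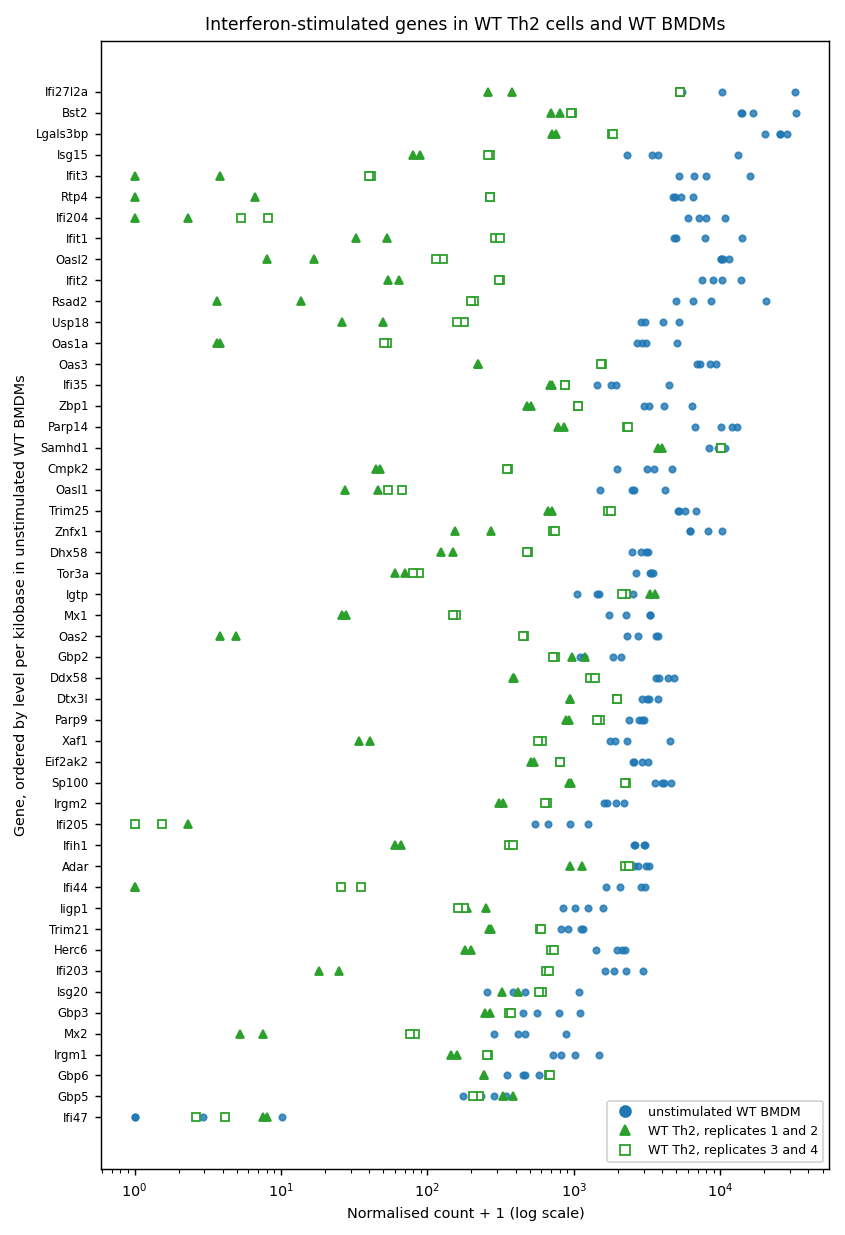
Normalised count plus 1 on a log scale for the 50 genes, ordered by their level per kilobase in unstimulated WT BMDMs; blue marks are the 4 unstimulated WT BMDM libraries, green triangles WT Th2 replicates 1 and 2, and open squares WT Th2 replicates 3 and 4. The cell types lie furthest apart for Ifit3, Ifi204 and Ifi205 and meet at the GTPase genes Igtp, Gbp5 and Gbp6.

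Igtp, which encodes the GTPase Irgm3, stood at 3288, 3581, 2283 and 2130 in the 4 WT Th2 libraries against 1055 and 1490 in the Tet cohort and 1438 and 2531 in the Tdg cohort of unstimulated WT BMDMs (log2 difference 0.93 ± 0.31, DESeq2 adjusted p = 0.0057). The groups overlapped in 1 BMDM library. Ifi205, at 545 to 1249 in unstimulated WT BMDMs, was at 0 to 1.32 in WT Th2 cells and at 0 in all TDG iKO Th2 libraries. Ifi204 stood at 1.32, 0, 4.31 and 7.12 and Ifit3 at 0, 2.81, 39.9 and 38.8 in WT Th2 cells. Gbp5 was close in both cell types, with 329, 384, 223 and 203 in Th2 against 173 to 341 in unstimulated WT BMDMs (0.27 ± 0.35), as was Gbp6 (-0.21 ± 0.42).

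The Th2 libraries fell apart by replicate. In WT, replicates 3 and 4 were both above replicates 1 and 2 for 44 of the 50 genes, where 44% of all genes were, with a median log2 ratio of 1.5, and in TDG iKO for 42 (40.6% of all genes). Oas3 stood at 220 and 221 against 1556 and 1530 in WT, and Ifi27l2a at 380 and 260 against 5284 and 5283, whereas Gbp5 and Igtp ran the other way. Between the genotypes none of the 40 genes tested passed the DESeq2 test, nor did any of all genes (0.0%). By edgeR none was called, and no unadjusted p was under 0.05 with either tool in these fits without a block. With the replicate number as a block across the genotypes, none of 44 genes tested was called. In that fit 1 gene had an unadjusted DESeq2 p under 0.05, and 15 of all genes (0.147%) were called, 10 higher and 5 lower. None of the 40 genes lay apart between the genotypes, where 0.784% of all genes did upward and 0.771% downward. For most of these genes the range of each genotype spans the gap between replicates. Overlap was therefore nearly unavoidable, and nothing is concluded from it. The genotype comparison had 3 samples per genotype, of which 1 differs from the rest in most of these genes.

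The genes that make and carry the interferon signal were examined as a list of 27, of which 22 were tested in the Tet cohort. With KLA 15 rose and 1 fell in WT BMDMs (13.1% and 11.1% of all genes), and 14 rose and 2 fell in TET iTKO BMDMs (12.8% and 11.6%). Ifnb1 itself was low throughout the Tet cohort, at 3.5 to 33.4 normalised counts, with no difference passing at either time, and Ifna1, Ifna2, Ifna4 and Ifna5 had no count in any BMDM library. In the Tdg cohort Ifnb1 stood at 15.4 and 204 in the 0 h WT libraries, the higher in the low-depth library. Irf7, the factor that amplifies interferon production, stood at 14046 to 32527 in BMDMs. The KLA receptor gene Tlr4 was the one that fell in WT BMDMs (log2 change -0.91 ± 0.13) and fell in TET iTKO too (-1.04 ± 0.13).

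Between TET iTKO and WT BMDMs, 3 of the 22 pathway genes were higher at 0 h (4.38% of all genes). Socs3, an inhibitor of cytokine receptor signalling, stood at 742 and 1034 against 323 and 265 (log2 difference 1.60 ± 0.17, DESeq2 adjusted p = 5.82e-18). Jak2, a kinase of the IFN-γ receptor and other cytokine receptors, stood at 1659 and 1718 against 1081 and 1142 (0.60 ± 0.14), and Ikbke, a kinase that can activate IRF3, at 3069 and 3320 against 2139 and 2326 (0.52 ± 0.11). At 6 h Jak2 (0.42 ± 0.14) and Ticam2 (0.55 ± 0.18), an adaptor gene between TLR4 and TRIF of which 21.3% of the exon bases overlap Tmed7, were higher by DESeq2 but did not pass by edgeR (adjusted p = 0.127 and 0.0934), beside 3.24% of all genes called higher by DESeq2. In the fit without a block 1 pathway gene, Socs3, had a different KLA response between the genotypes, with an interaction term of -1.52 ± 0.23 (DESeq2 adjusted p = 2.31e-07, edgeR adjusted p = 0.114), its levels at 6 h being 4621 and 6240 in TET iTKO against 4912 and 5305 in WT. With the block Ikbke (-0.50 ± 0.11, DESeq2 adjusted p = 0.00104) and Stat2 (-0.51 ± 0.13, DESeq2 adjusted p = 0.0066), which encodes a part of the interferon-activated complex, passed as well. In the fit without a block, no listed gene of the interferon receptor chains or transcription factors passed between TET iTKO and WT at either time.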

How the data were processed

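Polyadenylated RNA was sequenced as directional paired-end libraries from 16 BMDM and 8 Th2 samples. Per the labels, reads were aligned to mm9 with HISAT2 and counted with HTSeq, and DESeq2 1.30.0 is named among the tools. The deposited values were raw read counts per gene symbol, with 5 tallies of unassigned pairs in each library (32.8% to 46.6% of pairs in BMDM and 48.2% to 51.6% in Th2 libraries), which were left out. Gene annotation and strand setting were not given in the sources used here.

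Each BMDM cohort of 8 libraries was fitted together in R 4.3.3 with DESeq2 1.42.0 (Wald test, median-of-ratios size factors, default filtering, unshrunken fold changes), with p-values adjusted over all genes by the Benjamini-Hochberg method at a threshold of 0.05. The Th2 libraries were fitted together, and the cohorts and cell types were compared in joint fits. Alternatives were edgeR 4.0.16 (quasi-likelihood, TMM), TMM factors in DESeq2, a minimum of 10 counts in 2 libraries, a fit of only the groups compared, a replicate block and leaving out each replicate. The scripts were tested on simulated data. Error of a change is its SE, with n = 2 per BMDM group and n = 3 per Th2 genotype. The labels do not say whether replicates came from separate mice, so p-values measure the spread between these samples.

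Replicate numbers came from the labels. Deviations from the group means were compared over genes between same-numbered libraries of a genotype at 0 h and 6 h. They correlated at r = 0.244 to 0.693 in the 4 genotypes of the cohorts. For this reason a block within genotype is given beside the KLA responses. Th2 cells had no times, so their WT libraries were compared with the TDG iKO libraries of the same number, where r lay between 0.429 and 0.873. Between genotypes r was 0.00929 to 0.0307 in the Tet cohort and 0.313 to 0.623 in the Tdg cohort.

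The genes and lists were chosen with earlier results of these data known. Genes named were the 3 largest called changes in each direction of each comparison, the 2 most abundant genes of each role, genes called in more than 1 genotype comparison, and pathway genes called between genotypes with Ifnb1. Other genes were chosen after their values were seen.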

Additional observations from a re-analysis of the deposited data

Results flagged for a closer look

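The KLA response of 28 of the 49 genes tested was lower in TET iTKO than in WT BMDMs by the interaction term with the replicate number as a block within genotype, whereas none passed in the DESeq2 fit without a block on all libraries. With the replicate number as a block across the genotypes 9 were called (0.906% of all genes), and by edgeR without a filter on low counts 24 (1.8%). Without replicate 1 of the 6 h WT group the median term was -0.815, and without replicate 2 of it -0.182. In 6 genes the value went up with KLA in both WT pairs and down in both TET iTKO pairs. Among genes with a mean of at least 10 normalised counts, which leaves out Ifi47, 5 of 49 did so against 2.75% of all genes. By replicate number 1, the log2 change in TET iTKO BMDMs was -0.36 for Ifit3, -0.51 for Ifi204, -0.23 for Dhx58, -0.11 for Samhd1, -0.14 for Sp100 and -0.06 for Ifi47. The interaction term of none of these 6 genes passed in the DESeq2 fit without a block. With the block within genotype the DESeq2 adjusted p was 1.67e-11 for Ifit3 and 1.83e-05 for Ifi204, but 0.0632 for Samhd1, 0.161 for Sp100 and 0.669 for Dhx58, and Ifi47, with few counts, was not tested.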

How the results depend on the processing

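No single-gene result reversed, but the number of genes called depended on the setting. The single-gene results were those already called by DESeq2 without a block, so calls gained by other genes were not counted among them. For the 30 single-gene results, 282 of 333 alternatives kept the call and 51 lost it, of which 10 were lost under edgeR. For the KLA response of WT BMDMs of the Tdg cohort 2 genes were called by edgeR, 31 with the replicate block, 30 with the block nested in genotype and 2 to 17 with 1 library left out. For the response of TDG iKO the numbers were 1 (3.11%), 27 (12.1%) and 28 (11.3%), with medians from 0.315 to 1.13. In WT of the Tet cohort 16 to 44 were called with 1 library left out. For TET iTKO 25 were called by edgeR without a filter on low counts (23.2% of all genes) and 23 with only the groups compared (20.6%). The replicate block called 21 (24.4%) and the nested block 25 (25.9%), and the median ranged from 0.162 to 0.31. For TET iTKO against WT at 0 h edgeR called 4, edgeR without the filter 34, the fit of only the groups compared 24, the block 26, and 0 to 8 were called with 1 library left out. At 6 h edgeR without the filter called 10, the block 3, and 1 to 5 were called with 1 library left out, 5 of them lower without WT replicate 1 and 3 higher without WT replicate 2. For the interaction edgeR without the filter called 24 (1.8% of all genes), the block 9 (0.906%) and the nested block 28 (2.48%). Its median ranged from -0.815 to -0.182. For TDG iKO against WT the median ranged over all settings from -0.153 to 0.446 at 0 h and from -0.431 to 0.563 at 6 h. It ranged from -0.678 to 0.465 for the interaction of TDG iKO and from -0.49 to 0.478 between the cohorts. In the Th2 genotype comparison 0 were called under every setting, and between the cell types 40 to 46 with 1 library left out. The median log2 difference of TET iTKO against WT at 6 h ranged from -0.385 to 0.282 over all settings. Beside leaving out a library and the block, which change the samples or the residual spread, the cause was not tested. Where a library was left out, the lone sample of its group was assumed to vary like the other groups. The edgeR fit without a filter was chosen after seeing the data. For the interactions, a fit of only the groups compared is the whole fit and was not run separately. The Tet genotype groups share only a replicate number, so a call gained or lost there under the block is given here alone.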
